A study of Homo sapiens with 12 samples.

Results

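SRSF1, SRSF2, SRSF3, SRSF4, SRSF5, SRSF6, SRSF7, SRSF9, SRSF10 and SRSF11 are members of the SR family of splicing factors. These 10 genes were chosen by name from the 57820 genes of the count table, and 149 of the 170723 splice junctions of the junction table lay within them. Total RNA was sequenced from the human lines JVM3, HG3 and MEC1, all 3 labelled as cells of chronic lymphocytic leukaemia, a B cell cancer. Each line came with wild-type U1 or with U1 g.3A>C, an A-to-C change in its 5' end, which gave 6 groups of 2 technical replicates and 12 libraries. The comparison of mutant with wild-type cells of the same line asks what the altered U1 changes in splicing and RNA level. The labels give 1 source per line, so the line was the unit of replication (n = 3). A p-value from inside 1 line therefore reflects technical spread alone. The way mutant U1 was brought into the cells, and whether a mutant line is 1 clone, was not given in the sources used here.

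Libraries held 29880079 to 39716818 gene counts, and the 6 junction columns, 1 for each line and U1 status, held 15537369 to 17917160 reads. The B cell genes CD79A, CD79B, MS4A1, PAX5, CD22 and EBF1 had 59.2 CPM (reads scaled to library size) or more in every library, with MS4A1 at 701 to 1360 CPM. CD5, a surface marker used for this leukaemia, was near 0 in JVM3 (0.466 CPM in wild type) and MEC1 (0.101 CPM) and stood at 42.2 CPM in HG3. Summed T cell markers reached at most 1.79 CPM and summed myeloid markers 2.18 CPM and epithelial or stromal markers 6.39 CPM, with CD3D at 0 in HG3 and MEC1. The gene counts do not read base 3 of U1. RNU1-1, a U1 gene, stood at 43.0 and 58.8 CPM in wild-type and mutant JVM3, at 29.5 and 206 CPM in HG3 and at 12.1 and 22.4 CPM in MEC1, and its part in the results below was not tested.

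SR proteins carry RNA recognition motifs that bind exons and an arginine and serine rich tail that recruits the splicing machinery, including U1, to nearby splice sites. Most SR genes contain a poison exon, a cassette exon with an in-frame stop codon. A transcript that includes it is a target of nonsense-mediated decay, and SR proteins are known to limit their own level by promoting this inclusion. The 5' end of U1 pairs with the first bases of an intron, so that base 3 of U1 faces base 6 of the intron.

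The U1 ends are shown because they set which donors each form pairs with best. They were read from the RNU1-1 transcript of GENCODE release 29, with base 3 in capitals. Below them are the donors complementary to each form, written as 3 exon and 8 intron bases with base 6 of the intron in capitals.
wild-type U1: atActtacctg
U1 g.3A>C: atCcttacctg
donor complementary to wild-type U1: caggtaagTat
donor complementary to mutant U1: caggtaagGat

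Between genes, levels were compared as CPM per kilobase of annotated exon (release 29) in wild-type cells. SRSF1 and SRSF2 were highest at 105 ± 20.3 and 103 ± 24.9 CPM per kb (SD over 3 lines). SRSF3 (52.0), SRSF7 (45.7), SRSF9 (39.3), SRSF5 (37.8) and SRSF6 (35.7) followed, and neighbours among these 5 did not differ beyond their spread over lines. SRSF11 stood at 21.8 ± 1.61, SRSF4 at 10.5 ± 0.0788 and SRSF10 at 3.57 ± 0.656 CPM per kb, and these 3 did not overlap with one another or with the genes above them in any line. Part of some genes is shared with a neighbour: MFSD11, on the opposite strand, covers 36.7% of the annotated exon bases of SRSF2, GATC covers 46.2% of those of SRSF9, and the same-strand gene AC015813.2 covers 56.6% of those of SRSF1. The libraries were stranded, with a strand option for counting not given in the sources used here. SRSF1, SRSF9 and SRSF10 also have processed pseudogenes, so the counts of these 4 genes are uncertain to that extent.

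Across the 3 lines 0 of the 10 SR genes passed edgeR's quasi-likelihood test at an adjusted p under 0.05, where 3.69% of all 21270 genes tested were called, 1.83% higher and 1.86% lower. At an unadjusted p under 0.05 there were 2, SRSF2 and SRSF4, where 21.8% of all genes tested lay under it, and DESeq2 also called 0. With the 12 libraries left unsummed, with or without the replicate block, 5 were called (SRSF2, SRSF3, SRSF4, SRSF6 and SRSF7; edgeR adjusted p 0.000415 to 0.0312 with the block), in fits that take technical replicates as the error. The median log2 fold change of the 10 genes was 0.00, beside -0.01 over all genes. Within lines, against the spread of technical replicates, calls were made for 5 of 10 genes in JVM3 (22.4% of all genes), 6 in HG3 (38.3%) and 5 in MEC1 (36.6%). In JVM3 3 rose and 2 fell (10.4% and 12% of all genes), in HG3 2 rose and 4 fell (18.7% and 19.6%), and in MEC1 1 rose and 4 fell (18.0% and 18.6%).

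SRSF2, an SR protein that stays in the nucleus and binds both C-rich and G-rich exon motifs, fell in each line. In JVM3 it stood at 269 and 268 CPM in the wild-type and 236 and 244 CPM in the mutant libraries. In HG3 the values were 261 and 267 against 180 and 184 CPM, and in MEC1 398 and 382 against 334 and 316 CPM. All mutant libraries of a line lay below all its wild-type libraries, and HG3 showed the widest gap. In bulk RNA, fewer expressing cells and less RNA per cell cannot be told apart. The log2 fold changes were -0.16, -0.51 and -0.27, with edgeR adjusted p of 0.00078, 1.43e-15 and 5.19e-08. Across lines the log2 fold change was -0.31 ± 0.13 (SE over 3 lines), which did not pass (edgeR adjusted p = 0.0920), although it did with no filter on low counts (edgeR adjusted p = 0.00649).

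SRSF4, a large SR protein with a pair of RNA recognition motifs, rose in each line. Its wild-type level was nearly the same in the 3 lines, with 95.3 and 92.5 CPM in JVM3, 94.1 and 94.1 in HG3 and 93.9 and 89.8 in MEC1. The mutant libraries held 101 and 101, 111 and 109, and 119 and 120 CPM. Every mutant library was above every wild-type library. The log2 fold changes were 0.11, 0.25 and 0.38 in JVM3, HG3 and MEC1, with edgeR adjusted p of 0.0464, 2.42e-06 and 1.88e-10. Across lines the log2 fold change was 0.24 ± 0.07 (SE), which did not pass (edgeR adjusted p = 0.133). The call in JVM3 was lost without any 1 of its 4 libraries (edgeR adjusted p 0.0703 to 0.352) and without either HG3 mutant library (0.0578 and 0.0592). It was also lost with no filter on low counts (edgeR adjusted p = 0.0972) and with DESeq2 (adjusted p = 0.0539).

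SRSF6, a close relative of SRSF4, held 136 and 139 CPM in wild-type and 121 and 124 CPM in mutant JVM3 libraries. The values were 179 and 180 against 171 and 171 CPM in HG3, and 173 and 172 against 162 and 162 CPM in MEC1. Mutant libraries lay below wild-type libraries in each line, by margins that were narrow in HG3 and MEC1. SRSF6 fell in JVM3 (log2 fold change -0.17, edgeR adjusted p = 0.000734) and in MEC1 (-0.09, edgeR adjusted p = 0.0436), and in HG3 the value was -0.05 (edgeR adjusted p = 0.343). Across lines the log2 fold change was -0.10 ± 0.02 (SE, edgeR adjusted p = 0.462). The MEC1 call was lost without any 1 of the 4 MEC1 libraries (edgeR adjusted p 0.0990 to 0.171), and also without either HG3 mutant library or any JVM3 library (0.0643 to 0.0801) and with no filter on low counts (0.143).

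SRSF1, SRSF3 and SRSF7 shuttle between nucleus and cytoplasm and act in mRNA export as well as in splicing. SRSF3, the smallest SR protein, fell in HG3 from 318 and 323 to 267 and 264 CPM (log2 fold change -0.25, edgeR adjusted p = 7.93e-08). In MEC1 it fell from 414 and 422 to 387 and 384 CPM (-0.12, edgeR adjusted p = 0.00328), while the JVM3 groups overlapped. SRSF7, which has a zinc knuckle beside its recognition motif, fell in HG3 from 151 and 150 to 120 and 115 CPM (-0.33, edgeR adjusted p = 1.14e-09). Its JVM3 and MEC1 values, -0.04 and -0.07, did not pass (edgeR adjusted p = 0.457 and 0.131).

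SRSF1, the family's founding member, moved in opposite directions. In JVM3 it rose from 312 and 314 to 330 and 341 CPM (0.10, edgeR adjusted p = 0.0293), and in HG3 it fell from 310 and 304 to 282 and 283 CPM (-0.10, edgeR adjusted p = 0.0221). The JVM3 call was lost without mutant replicate 2 or either wild-type JVM3 library (edgeR adjusted p 0.127 to 0.320) and with no filter on low counts (0.0784). The HG3 call was lost without either mutant library or wild-type replicate 1 of HG3 (0.0678 to 0.0829).

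The other 4 genes changed in at most 1 line. SRSF5, which has a pair of recognition motifs like SRSF4 and SRSF6, fell in MEC1 from 185 and 189 to 175 and 173 CPM (-0.11, edgeR adjusted p = 0.0125), a call lost without replicate 2 of either MEC1 group (0.0892 and 0.0922). SRSF9, a small relative of SRSF1, rose in JVM3 from 175 and 172 to 183 and 192 CPM (0.11, edgeR adjusted p = 0.0241), a call lost without mutant replicate 2 or either wild-type library of JVM3 (0.0625 to 0.318). SRSF11, an SR-related protein, rose in HG3 from 181 and 190 to 201 and 198 CPM (0.13, edgeR adjusted p = 0.00367). That call was lost without mutant or wild-type replicate 1 of HG3 (0.0809 and 0.154). SRSF10, a splicing repressor when dephosphorylated, stood at 29.7 to 49.3 CPM over the 12 libraries and passed in no line, although without mutant replicate 1 its MEC1 value of 0.19 passed (edgeR adjusted p = 0.0220).

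**Figure D1:**
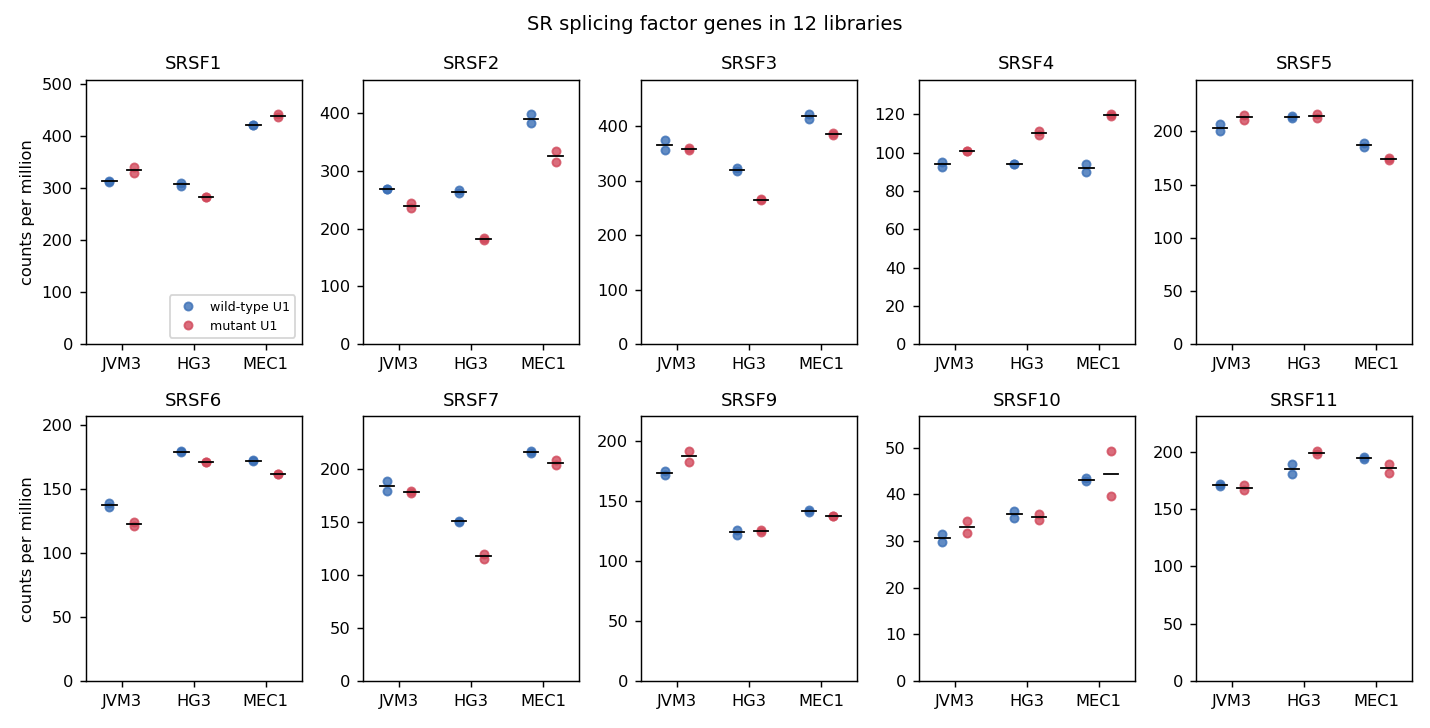
Level of each SR gene in CPM (y axis, from 0) in every library of the 3 lines (x axis); points are technical replicates and bars their mean. SRSF2 is lower and SRSF4 higher in the mutant libraries of each line, and the gap is widest in HG3 for SRSF2 and in MEC1 for SRSF4.

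The response to mutant U1 differed between lines for 7 of the 10 SR genes by edgeR's interaction test, where 32.0% of all genes were called. These were SRSF1, SRSF2, SRSF3, SRSF4, SRSF5, SRSF7 and SRSF11. With the replicate block SRSF9 joined them (edgeR adjusted p = 0.0187, against 0.0682 without). SRSF6 and SRSF10 did not pass (edgeR adjusted p = 0.189 and 0.745).

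**Figure D2:**
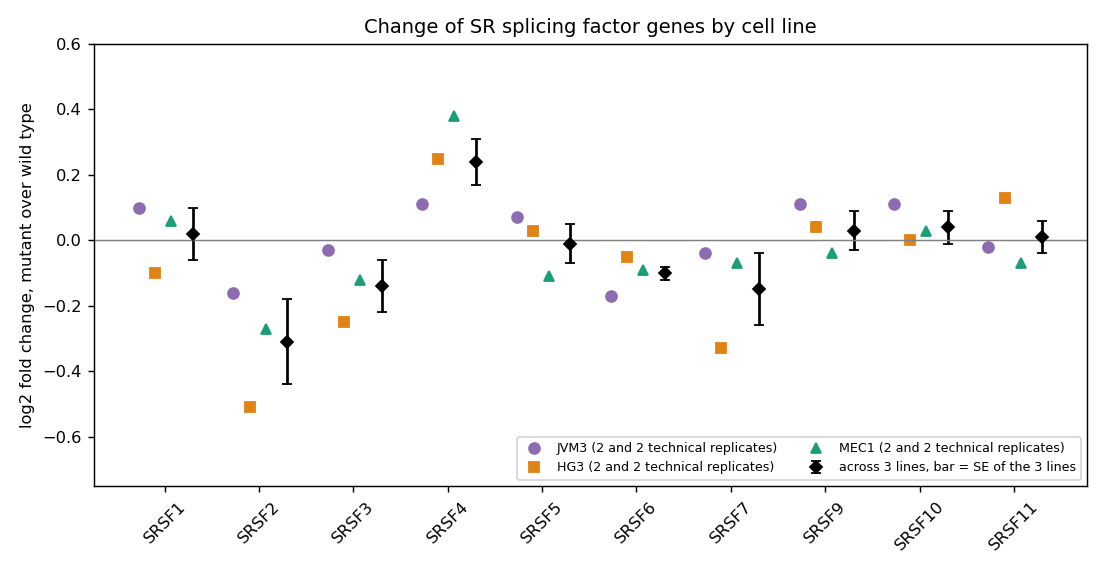
Log2 fold change of mutant over wild-type cells (y axis) for each SR gene (x axis), in each line and across lines with the SE of the 3 lines. The HG3 points of SRSF2 and SRSF7 lie lowest, at -0.51 and -0.33, and the MEC1 point of SRSF4 lies highest, at 0.38.

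Splicing was read from 105 junctions of the 10 genes with at least 20 reads in all. The use of a junction is its percent of the reads at its acceptor, the start of the next exon, and the 46 junctions that share an acceptor with another were tested with edgeR's diffSpliceDGE over all 35857 such junctions. A call also needed a mean change of at least 5 points, with 1 sign in all 3 lines. Of the 46, 4 were called, where 2.78% of all junctions were. Use was higher in mutant cells for 3 of them (background 2.0%), in SRSF5, SRSF6 and SRSF10, and lower for 1 (background 0.784%), in SRSF11. Coordinates are in hg19, as in the junction table, and each junction runs from the exon base before the intron to the exon base after it.

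SRSF6 gave the called junction with the smallest p. The junction table spans the gene at chr20:42087149-42089349. Inside this span lies a poison exon of 268 bases at chr20:42087793-42088060, whose in-frame stop codon starts at base 150 of the exon. SRSF4 has a poison exon of 195 bases at chr1:29486376-29486570 on the minus strand, with its stop codon at base 39. Both are shown from their first base to the stop codon, which is in capitals, because their inclusion was higher in mutant cells of each line. They were read from transcripts of GENCODE release 29 annotated as targets of nonsense-mediated decay.
SRSF6 poison exon: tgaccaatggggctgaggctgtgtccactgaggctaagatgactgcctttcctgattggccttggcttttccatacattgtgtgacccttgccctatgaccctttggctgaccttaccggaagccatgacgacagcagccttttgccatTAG
SRSF4 poison exon: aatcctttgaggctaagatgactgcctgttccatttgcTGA

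The SRSF4 and SRSF6 stretches share a run of 20 bases, shown because it is far longer than any other match among the stretches compared. Only the bases from the start of an exon to its stop codon were compared, not whole exons.
shared by SRSF4 and SRSF6: tgaggctaagatgactgcct
The run starts at base 8 of the SRSF4 exon and at base 29 of the SRSF6 exon. Among the 28 pairs of the 8 cassette exon stretches that end in a stop codon, the next longest shared run was 8 bases.

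A donor inside the SRSF6 poison exon, which is not in the annotation, was used more in mutant cells. The junction from it, chr20:42087957-42088411, would leave a short form of 165 bases if the exon starts at its annotated base. That form would keep the stop codon and lack the last 103 bases of the exon. Junction counts do not link a donor to an exon start. Over all columns 169 reads entered the exon at its annotated start, while 471 left from its annotated end and 134 from this donor.
short SRSF6 donor: atgGTgaggat
The capitals mark the first bases of the intron. Base 6 of this intron is G, and 8 of the 11 bases can pair with the mutant U1 end against 7 with the wild-type end.

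Reads over this junction numbered 6 in wild-type and 24 in mutant JVM3, 5 and 59 in HG3, and 2 and 38 in MEC1. As percent of reads at the acceptor these were 1.7% (95% Wilson interval 0.8 to 3.6) and 7.8% (5.3 to 11.3) in JVM3. They were 1.0% (0.4 to 2.4) and 21.1% (16.7 to 26.2) in HG3, and 0.5% (0.1 to 1.8) and 9.6% (7.1 to 12.9) in MEC1. The intervals, which cover counting error only, did not overlap in any line, and HG3 was highest. The mean change was 11.8 ± 7.3 points (SD, n = 3 lines; edgeR adjusted p = 1.09e-05). The junction was also called without each line in turn, with 7.6 points without HG3 (edgeR adjusted p = 0.00346), but not with limma on log2 ratios (adjusted p = 0.0703).

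The same acceptor received the skipping junction, chr20:42087149-42088411, and the junction of the long, annotated form, chr20:42088060-42088411. Skipping took 84.5% of acceptor reads in wild-type and 70.1% in mutant JVM3, 79.6% and 51.1% in HG3, and 84.2% and 59.5% in MEC1. Every mutant column was below every wild-type column. The mean change was -22.5 ± 7.3 points, which was not a call (edgeR adjusted p = 0.157). The long form stood at 16.2 ± 2.9% in wild-type and 26.9 ± 4.5% in mutant cells (SD, n = 3), also not a call (edgeR adjusted p = 0.0806). Of the reads that left the upstream exon, the share entering the poison exon at chr20:42087149-42087793 was 5.4% and 12.2% in JVM3, 4.5% and 18.3% in HG3, and 7.2% and 16.4% in MEC1. Grouped by donor in this way, use rose by 9.9 ± 3.5 points (edgeR adjusted p = 0.0197), where 1.33% of 39252 junctions were called in this direction.

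**Figure D3:**
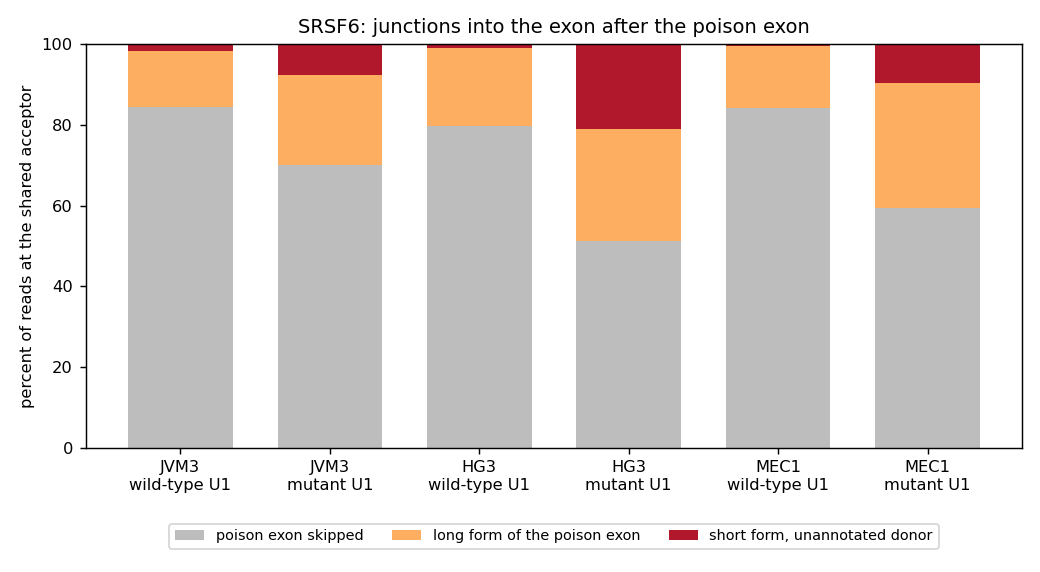
Percent of reads (y axis) that reached the SRSF6 exon after the poison exon by skipping it, from its long form or from its short form, stacked to 100 for each line and U1 status (x axis). The short form holds 0.5% to 1.7% of reads in wild-type and 7.8% to 21.1% in mutant cells, and skipping is lower in the mutant column of each line.

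Inclusion of the 268-base exon was summarised as the mean of its upstream and downstream junction reads over that mean plus the skipping reads, where the downstream reads come from the long form alone. It was 9.91% (95% Wilson interval 7.14 to 13.59) in wild-type and 18.49% (14.28 to 23.60) in mutant JVM3. In HG3 it was 12.66% (9.98 to 16.24) and 27.78% (22.01 to 34.39), and in MEC1 11.49% (8.79 to 15.27) and 26.33% (21.80 to 31.43). Intervals did not overlap in any line. The mean change was 12.85 ± 3.70 points (SD, n = 3 lines). The mean inclusion reads themselves were 33.0 and 49.0 in wild-type and mutant JVM3, and 43.5 and 84.0 in MEC1. In HG3 they were 55.5 and 55.0, so the higher percent there came with fewer skipping reads, 383 against 143. Reads of the skipping junction were 54.7%, 58.2% and 46.8% of those of the gene's last junction, chr20:42089238-42089343, in wild-type JVM3, HG3 and MEC1. In mutant cells they were 39.1%, 19.6% and 27.8%, lower in each line, while the change of the gene's total level was -0.10 on the log2 scale.

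The SRSF4 poison exon was included in few transcripts. Its inclusion was 0.37% (95% Wilson interval 0.07 to 2.07) in wild-type and 3.08% (1.68 to 5.57) in mutant JVM3, 4.14% (2.32 to 7.25) and 6.42% (4.04 to 10.03) in HG3, and 1.25% (0.56 to 3.61) and 4.32% (2.82 to 6.90) in MEC1. The mutant value was higher in each line by a near equal step, 2.71, 2.28 and 3.07 points, and the intervals of a line overlapped. Its downstream and upstream junctions, with 79 and 41 reads over all 6 columns, were not called (edgeR adjusted p = 0.35 by acceptor and 0.143 by donor).

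Transcripts annotated for nonsense-mediated decay, with the 3 junctions required, gave 13 cassettes in 8 of the genes. They lie at 12 positions, since 1 SRSF11 exon of 117 bases was read against 2 upstream exons, and 3 of the SRSF11 cassettes share a downstream junction. Of the 13, 8 hold the stop codon themselves, and in the others it lies before or after the exon. Among them, the SRSF1 (203 bases) and SRSF10 (165 bases) exons had high mean inclusion in every column and are not called poison exons here. Over all 8, mean inclusion was higher in the mutant column of each line for 4, and neither of these exons is among the 4. It was also so from the upstream and from the downstream junction alone for 3 of them, in SRSF4, SRSF6 and SRSF11 (117 bases), while the SRSF3 exon was lower in JVM3 from the downstream junction. No test across features exists for this summary, so their junctions carry the test. In 4 of the 13 cassettes (SRSF1, 203 bases; SRSF4, 184 bases; SRSF10, 165 bases; SRSF11, 117 bases after the 109-base exon) inclusion was 93.75% or more in every column. For the SRSF1 exon this rests on its upstream junction, with 8942 reads against 45 downstream and 94 that skip it, and the downstream junction alone gave 33.22% in wild-type and 26.46% in mutant cells.

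The poison exons of SRSF3 and SRSF7 are shown because their stop codons lie near the start of the exon and their mean changes were about 1 point or less. The stop codon is in capitals.
SRSF3 poison exon: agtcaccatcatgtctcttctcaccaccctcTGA
SRSF7 poison exon: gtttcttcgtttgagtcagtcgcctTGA

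For SRSF3 (456 bases, chr6:36567598-36568053) inclusion was 7.76% and 7.98% in wild-type and mutant JVM3, 4.38% and 4.97% in HG3, and 4.37% (95% Wilson interval 3.63 to 5.27) and 6.45% (5.54 to 7.50) in MEC1. The mutant value was higher in each line, with intervals that were apart in MEC1 and overlapped in JVM3 and HG3. The mean change was 0.96 ± 0.98 points, as wide as its SD, and neither junction tested at its acceptor was called (edgeR adjusted p = 0.884 for inclusion and 1 for skipping). For SRSF7 (449 bases, chr2:38976040-38976488) inclusion was 7.53% and 7.29% in JVM3, 6.41% and 7.29% in HG3, and 2.59% and 3.45% in MEC1. Its mean change was 0.50 ± 0.64 points. Lines differed more than U1 status did here, with MEC1 below the other 2 lines. A second SRSF7 exon of 69 bases (chr2:38974204-38974272) was included in at most 0.49%.

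SRSF2 carries a 104-base cassette at chr17:74731854-74731957, in the part of the gene after the coding sequence, with the stop codon upstream of it. Its inclusion was 6.93% and 6.38% in wild-type and mutant JVM3, 7.76% (95% Wilson interval 6.52 to 9.14) and 13.39% (11.43 to 15.62) in HG3, and 4.84% and 3.56% in MEC1. HG3, where the SRSF2 level was lowest in mutant cells, was the 1 line in which inclusion was higher. The mean change of 1.26 ± 3.79 points was within the spread over lines.

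**Figure D4:**
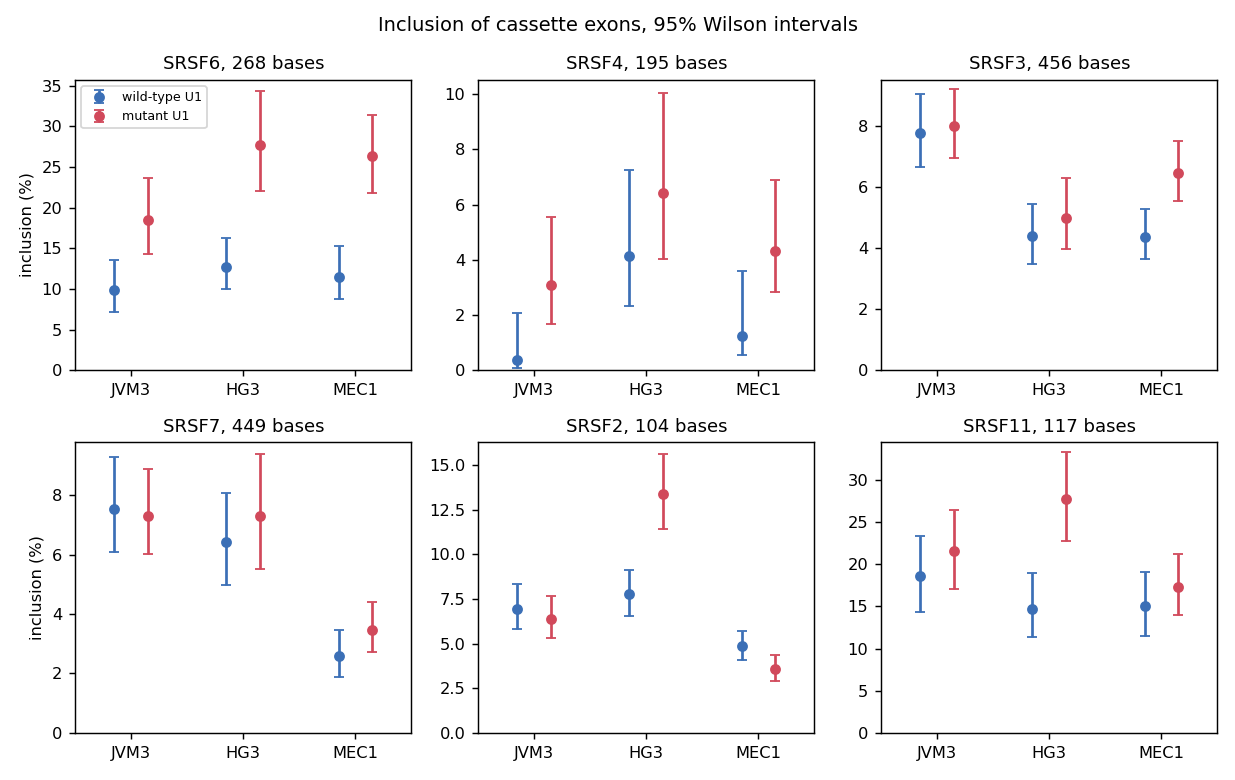
Inclusion in percent (y axis, from 0, scale set for each panel) of 6 cassette exons in the junction column of each line (x axis) and U1 status, with 95% Wilson intervals of counting error. The SRSF6 exon stands at 9.91% to 12.66% in wild-type and 18.49% to 27.78% in mutant cells, while the SRSF7 intervals overlap within each line and the SRSF3 intervals are apart in MEC1 alone.

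SRSF11 spans chr1:70671463-70716294 in the junction table and has 2 cassettes, of 109 and 881 bases, that start at a common acceptor, chr1:70696778, in transcripts whose stop codon lies before them. In wild-type cells most of the reads at it came from the upstream exon, by chr1:70694238-70696778. Such reads numbered 12 of 18 in wild-type and 13 of 35 in mutant JVM3, 17 of 24 and 5 of 48 in HG3, and 9 of 15 and 6 of 42 in MEC1. This share was 65.8 ± 5.5% in wild-type and 20.6 ± 14.4% in mutant cells (SD, n = 3), a fall of 45.2 ± 15.5 points (edgeR adjusted p = 0.0173). Wild-type and mutant columns did not overlap. The other reads came from a donor at base 70696301 that the annotation gives in a non-coding transcript, with 19 reads in wild-type and 101 in mutant cells. That junction was itself not called (edgeR adjusted p = 0.0736).
SRSF11 upstream donor: aagGTttgtgc
SRSF11 donor at 70696301: ctgGTgagggg
The upstream donor has T and the donor at 70696301 has G at base 6 of the intron, and the capitals mark where each intron starts. The call rests on few reads. It was lost without HG3 (-37.6 points, edgeR adjusted p = 0.326) and without MEC1 (-45.0 points, edgeR adjusted p = 0.143). Grouped by donor, the same junction changed by -1.3 points (edgeR adjusted p = 1). Inclusion of the 881-base cassette was 14.33% in wild-type and 19.25% in mutant cells from both junctions, a change of 4.92 ± 5.17 points that was -1.35 points from its upstream junction alone. For the 109-base cassette the change was -2.27 ± 3.43 points, with -12.96 from the upstream and 7.31 from the downstream junction.

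Further along SRSF11, a poison exon of 117 bases (chr1:70697542-70697658, stop codon at base 48) had inclusion of 18.65% and 21.51% in JVM3, 14.67% (95% Wilson interval 11.40 to 18.97) and 27.74% (22.77 to 33.32) in HG3, and 15.01% and 17.34% in MEC1. Intervals were apart in HG3 and overlapped in the other lines. Its downstream junction also serves an exon of 881 bases, and it was not called (edgeR adjusted p = 0.347).

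SRSF10, on the minus strand of chromosome 1, skipped an exon before the acceptor at 24294213 more often in mutant cells. The skipping junction, chr1:24294213-24298340, had 18 of 309 acceptor reads in wild-type JVM3 and 32 of 337 in mutant JVM3. The counts were 20 of 293 and 50 of 258 in HG3, and 36 of 271 and 84 of 367 in MEC1. Its use was 5.8% and 9.5%, 6.8% and 19.4%, and 13.3% and 22.9% in the 3 lines, so that mutant JVM3 lay below wild-type MEC1 while each mutant column exceeded its own wild type. Use rose by 8.6 ± 4.5 points (edgeR adjusted p = 0.0173).
SRSF10 skipping donor: aaaGTaagtgt
This donor, with the intron's start in capitals and T at base 6 of the intron, is used by the skipping and the including junctions alike. The call was lost without HG3 (6.6 points, edgeR adjusted p = 0.278), without MEC1 (8.1 points, edgeR adjusted p = 0.104) and when junctions were grouped by donor (7.7 points, edgeR adjusted p = 0.107).

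SRSF5 has 3 donors that splice to the acceptor at base 70234855 of chromosome 14. The last of them, chr14:70234097-70234855, took 11.5% (95% Wilson interval 9.7 to 13.6) of acceptor reads in wild-type and 16.4% (14.5 to 18.4) in mutant JVM3. It took 9.3% (7.8 to 11.2) and 17.7% (15.6 to 19.9) in HG3 and 22.1% (19.8 to 24.5) and 35.4% (32.7 to 38.1) in MEC1. Intervals were apart in each line, and MEC1 was higher than the others in both states. Use rose by 8.8 ± 4.2 points (edgeR adjusted p = 0.0081), and was 59.4% and 50.1% for the middle donor (not called, edgeR adjusted p = 0.592). The call was lost without HG3 (9.1 points, edgeR adjusted p = 0.149). With limma on log2 ratios 0 of the 46 junctions were called, and the 4 junctions above had adjusted p of 0.0703 to 0.319 there.

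**Figure D5:**
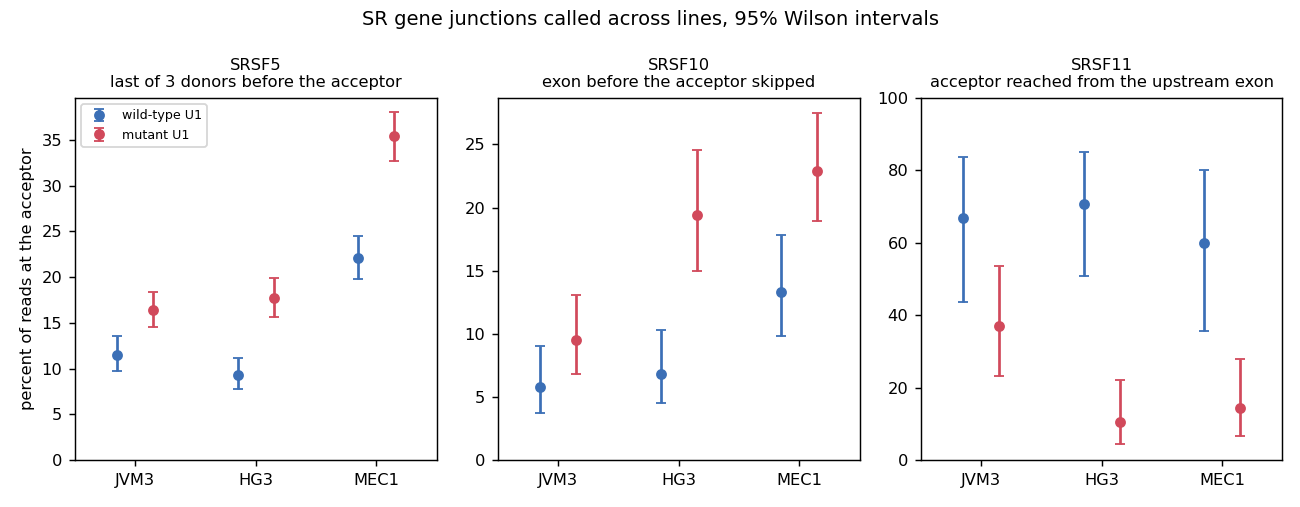
Percent of reads at the acceptor (y axis, scale set for each panel) taken by the called junctions of SRSF5, SRSF10 and SRSF11 in each line (x axis), with 95% Wilson intervals of counting error. Mutant cells lie above wild-type cells of the same line in SRSF5 and SRSF10 and below them in SRSF11.

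For the members with no call, the tested junction with the largest change is given. It was -3.8 ± 4.1 points at chr17:56082402-56082759 of SRSF1, -1.4 ± 4.3 at chr17:74731240-74732236 of SRSF2 and -0.8 ± 1.5 at chr6:36566760-36568929 of SRSF3. It was 4.2 ± 17.6 points at chr1:29495150-29496935 of SRSF4 and -0.8 ± 1.1 at chr2:38972329-38973836 of SRSF7. All had an edgeR adjusted p of 1, and each change was smaller than its SD over lines. SRSF9 had no tested junction at a shared acceptor.

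Donor sequences were found for 38 of the 69 donors of these junctions, and 38 of 38 introns began with GT. Base 6 of the intron was T in 21, G in 9, C in 5 and A in 3. Of the 8 tested junctions with G at base 6, 4 were used more and 0 less in the mutant column of every line, with changes from -1.4 to 45.2 points. Among these 4 only the SRSF6 junction chr20:42087957-42088411 was called, and chr17:74731240-74731700 of SRSF2 changed by 0.2 points. Of the 19 with T, 2 were used more and 5 less in every line, with changes from -45.2 to 8.6 points. The highest of these was the called SRSF10 junction. Of the 3 with C, 0 were used more and 1 less in every line, and the 1 with A was used less. Junctions at 1 acceptor share their reads, and such counts were not made for the junctions of other genes, so these counts are a description.

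A donor of SRSF1 is shown because, of the 38 read, it can pair with mutant U1 at the most bases and its use differed by less than the spread over lines.
SRSF1 donor at 56083093: aagGTaaggat
It has G at base 6 of the intron, and 10 of its 11 bases can pair with mutant U1 against 9 with wild-type U1. The junction chr17:56082961-56083093, which is not in the annotation, took 0.6 ± 0.5% of acceptor reads in wild-type and 0.6% in mutant cells, with 21 and 26 reads. By line it had 12 and 8 reads in JVM3, 8 and 6 in HG3 and 1 and 12 in MEC1. Its share fell from 1.0% to 0.5% in JVM3 and rose from 0.1% to 0.6% in MEC1. Its change was -0.0 ± 0.5 points (edgeR adjusted p = 1).

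Among 5 lists of other genes of the SR pathway, 5 of 63 genes tested were called across lines, against 3.69% of all genes. Of 22 SR-related proteins 0 rose and 3 fell, with a median log2 fold change of 0.00. The 3 were PPIG, a cyclophilin with an SR tail (-0.78 ± 0.11 SE, 117 to 66.8 CPM, edgeR adjusted p = 0.0056), ARGLU1, a splicing coactivator (-0.51 ± 0.06, 186 to 128 CPM, 0.0153), and PNN, a partner of the exon junction complex (-0.48 ± 0.09, 199 to 141 CPM, 0.0208). Each was lower in every line. Of 13 kinases, phosphatases and importins that act on SR proteins 0 were called and 2 had an unadjusted p under 0.05, against 21.8% of all genes. The smallest p was that of TNPO3, the importin of SR proteins (0.24 ± 0.03, edgeR adjusted p = 0.112).

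Of 10 splice site factors, which are U1 proteins and partners plus U2AF1 and U2AF2 of the 3' splice site, 0 were called. An unadjusted p under 0.05 was seen for 3 of the 10 (21.8% of all genes), TIA1, U2AF2 and SNRNP70. TIA1, which helps U1 bind weak donors, had the smallest p (-0.27 ± 0.06, edgeR adjusted p = 0.0986). Of 10 factors of nonsense-mediated decay 0 were called and 3 had an unadjusted p under 0.05, beside the same 21.8%. Their median log2 fold change was 0.16, beside -0.01 over all genes, and SMG9 had the smallest p (0.57 ± 0.21, edgeR adjusted p = 0.0576). Of 8 transcripts known to be cleared by this decay 2 rose and 0 fell (1.83% and 1.86% of all genes), and the median was 0.24. At an unadjusted p under 0.05 there were 5 of the 8 (21.8% of all genes), with ATF4, which was lower, among them. The 2 that rose were GADD45B, a stress gene (0.50 ± 0.13, 106 to 140 CPM, edgeR adjusted p = 0.0367), and SNHG1, a snoRNA host (0.39 ± 0.05, 177 to 228 CPM, edgeR adjusted p = 0.0401). ATF4, a transcription factor of the stress response, went the other way at -0.24 ± 0.07 and was not called across lines (edgeR adjusted p = 0.169), but fell within JVM3 (-0.30, edgeR adjusted p = 1.08e-09) and MEC1 (-0.35, 4.36e-12). The 5 calls were 2 without HG3 and 1 without MEC1.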

How the data were processed

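RNA was isolated by the Trizol method and sequenced as stranded, ribosome-depleted total RNA libraries, per the labels' protocols. The deposited gene and junction files hold raw counts. The tools named are HTSeq 0.9.1 and STAR 2.5.4b and the builds hg19 and GRCh37, per the submitters' processing notes. Filters on junctions were not given in the sources used here, so a junction count of 0 may be a filter. Junction columns carry no replicate letter and were taken as pooled over replicates. Reads outside features, ambiguous or not uniquely aligned took no part.

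The members and gene lists were chosen with earlier results of these data known. Named were the 10 members, the called genes of each list (at most 4, else the 1 with the smallest p), called junctions, poison exons and the largest change of members with no call. Genes were tested with edgeR 4.0.16 in R 4.3.3 (TMM, filterByExpr, robust, Benjamini-Hochberg): across lines on summed replicates, blocked by line, and within lines on 12 libraries as 6 groups. CPM use TMM factors. Deviations of same-numbered libraries correlated at 0.131, 0.11 and 0.398 in JVM3, HG3 and MEC1. The design's fits did not use replicate numbers, and alternative fits took them as a block. No replicates agreed within counting noise (mean chi-square per gene 2.28 to 5.29). Junctions were placed in genes by matching intron lengths to GENCODE release 29, without converting coordinates. Cassettes come from transcripts annotated for nonsense-mediated decay and are not wholly inside coding sequence of a protein-coding transcript. Those that hold the stop codon are called poison exons, except the SRSF1 (203 bases) and SRSF10 (165 bases) exons, whose mean inclusion was high in every column. Tested on simulated data, the gene fit recovered 99.5% of 2-fold changes in well-counted genes and the junction fit 63% of 3-fold changes in deeply read junctions. Changes as small as those of the SR genes across lines were not simulated, so these shares do not give the power to call them. Alternatives used limma 3.58.1 and DESeq2 1.42.0.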

Additional observations from a re-analysis of the deposited data

Results flagged for a closer look

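For 7 SR genes the response to mutant U1 differed between the 3 lines in edgeR's interaction test. The adjusted p was 1.96e-06 for SRSF2, with log2 fold changes of -0.16, -0.51 and -0.27 in JVM3, HG3 and MEC1. It was 3.25e-05 for SRSF7 (-0.04, -0.33 and -0.07) and 0.00158 for SRSF3 (-0.03, -0.25 and -0.12). It was 0.00111 for SRSF4 (0.11, 0.25 and 0.38), whose response was largest in MEC1. For SRSF1 the edgeR adjusted p was 0.00269 (0.10, -0.10 and 0.06). For SRSF11 it was 0.00453 (-0.02, 0.13 and -0.07), lost without mutant or wild-type replicate 1 of HG3 (edgeR adjusted p = 0.0671 and 0.0878). For SRSF5 it was 0.0111 (0.07, 0.03 and -0.11), lost without mutant replicate 2 or wild-type replicate 1 of JVM3 or replicate 2 of either MEC1 group (edgeR adjusted p 0.0542 to 0.0580). These p-values measure technical spread, and 32.0% of all genes passed the same test.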

How the results depend on the processing

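In 200 junctions drawn from those with more than 200 reads and an intermediate share of acceptor reads, the junction test found 63% of simulated 3-fold changes. Changes in junctions with fewer reads, such as the called ones of SRSF6 and SRSF11, were not simulated. The count of SR genes called across lines, 0, became 5 with the 12 libraries unsummed, both with no replicate block and with the replicate block, and 1 with no filter on low counts. The block changed no other call than SRSF9's response between lines. Over all genes the count of 784 became 6641 unsummed with no block, 6514 with the replicate block, 1326 with DESeq2, 2540 with no filter, 380 without JVM3, 320 without HG3 and 341 without MEC1. Of 5 SR genes within JVM3, 3 were called with no filter and 2 to 5 without 1 library, and of 5 within MEC1 3 to 5. Network genes called, 5, became 2 without HG3 and 1 without MEC1. The 4 called SR junctions became 0 with limma, 1 without HG3 and 2 without MEC1. Grouped by donor 1 SR junction was called, SRSF6 chr20:42087149-42087793, which is not among the 4.

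Signs turned for values that the design's fits did not call. Across lines SRSF1 was -0.003 with no filter and -0.035 without JVM3, SRSF5 0.056 without MEC1, SRSF9 -0.019 and SRSF10 -0.002 without JVM3, and SRSF11 -0.011 with no filter and -0.052 without HG3. SRSF10 in HG3 was -0.003 with DESeq2, -0.002 with its size factors and -0.022 with no filter. Without 1 library, values across lines ran from -0.018 to 0.001 (SRSF5), -0.012 to 0.093 (SRSF10) and -0.005 to 0.022 (SRSF11). Within lines they ran from -0.06 to 0.001 (SRSF3, JVM3), -0.04 to 0.03 (SRSF10, HG3) and -0.12 to 0.186 (SRSF10, MEC1). SRSF2 chr17:74731240-74732236 was 1.04 points without HG3 and SRSF4 chr1:29495150-29496935 -2.88 without JVM3. Cassette values also moved with 1 junction in place of 2. From the upstream junction SRSF11 was -12.96 (109 bases), -1.35 (881 bases) and 15.29 points (117 bases after the 109-base exon), against -2.27, 4.92 and 3.80. From the downstream junction SRSF1 was -6.76 against -1.01, and SRSF11 7.31 (109 bases) and 2.17 (117 bases). Of the 13 cassettes 6 were higher in every line by the mean, 5 by the upstream and 5 by the downstream junction. The cause was not tested.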

Other observations

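Some junctions that the annotation does not hold were at 0 in some columns and deep in others. In SRSF1, chr17:56082978-56083162 had 19, 28, 12 and 35 reads in wild-type JVM3, HG3 and MEC1 and mutant MEC1, and 0 in mutant JVM3 and HG3. In SRSF2, chr17:74731031-74731143 had 37 reads in wild-type JVM3, 19 in wild-type HG3 and 34 in mutant MEC1, and 0 in the other 3 columns. In SRSF10, chr1:24301519-24303807 had 26 and 56 reads in wild-type and mutant JVM3 and 38 in mutant MEC1, and 0 elsewhere. None of them followed U1 status over the 3 lines.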
